A study of Mus musculus with 9 samples.

Results

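The interferon-induced transmembrane (IFITM) genes were followed in cDC1, the conventional type 1 dendritic cells, of lymph nodes beside the mouse pancreas. The family was chosen by the difference of Ifitm2 between stages in these same libraries, and its 5 members are Ifitm1, Ifitm2, Ifitm3, Ifitm6 and Ifitm10 of the 53458 genes summed. RNA was sequenced in 9 libraries, with 3 libraries in each of 3 stages. The Healthy group is labelled as healthy, the PanIN group drains pancreatic intraepithelial neoplasia, the precursor lesion of pancreatic ductal carcinoma, and the Tumor group drains tumour. The study's title names KPC, a genetically engineered mouse model of pancreatic cancer. The labels spell out no allele, promoter, strain, age or sex for any library, and whether the Healthy mice carry part of the KPC genotype is not stated. They also do not say whether a library came from 1 mouse or from pooled mice, so a p-value measures only the spread between these libraries.

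IFITM proteins are small membrane proteins that cells make after interferon, and that hinder the fusion of enveloped viruses with the membranes of the cell. Ifitm2 and Ifitm3 proteins act mostly in endosomes and lysosomes, and Ifitm1 protein mostly at the cell surface. Ifitm5 is a bone gene. The cDC1 take up material from dying cells and present it to CD8 T cells, and a virus-restricting programme is a known feature of dendritic cells exposed to interferon.

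Ifitm5, Ifitm2, Ifitm1, Ifitm3 and Ifitm6 lie in a row on chromosome 7 of the mouse genome (GRCm38). Ifitm2 (ENSMUSG00000060591) lies at chr7:140954837-140955987 on the minus strand, Ifitm1 (ENSMUSG00000025491) at chr7:140967221-140969825 on the plus strand, Ifitm3 (ENSMUSG00000025492) at chr7:141009586-141010770 on the minus strand and Ifitm6 (ENSMUSG00000059108) at chr7:141015699-141017924 on the minus strand. These 4 members span 63.1 kb. Ifitm10 (ENSMUSG00000045777), at chr7:142325837-142373753 on the minus strand, lies 1.31 Mb from Ifitm6.

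The promoters of Ifitm2 and Ifitm3, the most abundant members, are shown because each holds a core of the interferon-stimulated response element (ISRE), the site at which interferon-activated factors bind. The sequences are those of RefSeq on GRCm38.p6, with 250 bases before and 50 bases after each gene's start, at chr7:140955912-140956211 for Ifitm2 and chr7:141010695-141010994 for Ifitm3, both read on the minus strand. Capitals mark each match to the ISRE core GAAANNGAAA.
Ifitm2 promoter: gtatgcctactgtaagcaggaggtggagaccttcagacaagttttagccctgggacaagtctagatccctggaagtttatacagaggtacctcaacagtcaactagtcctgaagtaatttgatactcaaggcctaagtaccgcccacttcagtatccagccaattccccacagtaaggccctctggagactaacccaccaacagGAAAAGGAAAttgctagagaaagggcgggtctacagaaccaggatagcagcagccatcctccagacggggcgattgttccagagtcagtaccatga
Ifitm3 promoter: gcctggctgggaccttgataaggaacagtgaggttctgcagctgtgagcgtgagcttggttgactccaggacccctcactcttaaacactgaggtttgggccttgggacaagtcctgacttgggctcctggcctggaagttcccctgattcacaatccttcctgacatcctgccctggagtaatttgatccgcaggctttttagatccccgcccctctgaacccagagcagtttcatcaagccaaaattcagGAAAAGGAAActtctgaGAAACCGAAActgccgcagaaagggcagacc
The match of Ifitm2 begins at position -46 from the start, and those of Ifitm3 begin at positions 3 and 20 after it. The ISRE core, searched on both strands, was present in 1131 of all 32851 promoters of the same length, or 3.44%. A core of the gamma-activated site, TTCNNNGAA on both strands, was found in 8.3% of all promoters, in that of Ifitm3 at position 14, where it overlaps the second ISRE core, and in that of Ifitm6 at position -10. The promoter windows of Ifitm1 and Ifitm10 held neither set of letters, and that of Ifitm6 held no ISRE core. Mean levels of Ifitm1 and Ifitm6 were higher in PanIN and in Tumor than in Healthy. For PanIN over Healthy the log2 fold change was 0.12 (SE 0.61) for Ifitm1 and 0.44 (SE 0.41) for Ifitm6. Whether a match bears on a level was not tested. A match describes the letters only.

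The members also share coding sequence, which matters for how reads are divided between them. The coding sequences of Ifitm2 and Ifitm3 were identical over 80.9% of their aligned bases, and those of Ifitm1 were identical to each of them over 82.1%. Ifitm10 was the most distant member, with 58.2% to 68.9% of aligned bases identical to the others. The longest stretch shared by Ifitm2 and Ifitm3 has 69 bases, begins at base 130 of the Ifitm2 coding sequence and at base 133 of the Ifitm3 coding sequence, and is shown because a read inside it cannot be placed in one gene or the other.
Stretch shared by Ifitm2 and Ifitm3: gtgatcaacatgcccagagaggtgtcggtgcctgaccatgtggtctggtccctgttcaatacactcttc
Of the 625 words of 31 bases in the Ifitm2 transcript, 55.5% were also present in another annotated gene, against 20.5% for Ifitm3, 23.6% for the main Ifitm1 transcript and none for Ifitm6. The genes sharing words with Ifitm2 were mainly a read-through gene that joins Ifitm5 and Ifitm2 (Gm45717, 238 words) and processed pseudogenes such as Gm8865 (147 words) and Gm11951 (137 words), while Ifitm3 shared 39. The counts assigned to those genes outside the Ifitm family came to between 0.0% and 4.9% of the count of Ifitm2 in each library. How the quantification divided shared reads was not tested, and each level of Ifitm1, Ifitm2 and Ifitm3 carries that uncertainty.

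The libraries held between 32150281 and 68934430 estimated counts. All 10 markers of cDC1 were detected in every library, with a summed level of 4179 to 15180 CPM (counts scaled to library size). Healthy 2 stood apart by Ccr7, the chemokine receptor of migratory dendritic cells, at 57.2 CPM against 419 to 2602 CPM in the other 8 libraries. By stage, Ccr7 had 1265, 57.2 and 419 CPM in the Healthy libraries, 1518, 970 and 666 CPM in the PanIN libraries, and 2602, 1097 and 1584 CPM in Tumor. Its bearing on the IFITM levels was not tested. Healthy 3 stood apart by Rn7s1, a small cytoplasmic RNA, which took 1.78% of its counts against 0.263% to 0.765% in the others. Of 24133 genes tested by edgeR, 0 were called between PanIN and Healthy at an adjusted p under 0.05 (0.0%), 6 between Tumor and Healthy (0.0249%) and 3 between Tumor and PanIN (0.0124%). All 5 members passed the filter on low counts. In bulk RNA, more of a cell type that makes a transcript and more of that transcript in each cell cannot be told apart.

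Ifitm2 was the member with the widest difference between Tumor and Healthy, and its difference between stages chose the family, so its values are a description with no test. In TPM, a level scaled to transcript length and library size, it had 20.1, 17.0 and 21.1 in the Healthy libraries, 34.8, 47.9 and 65.8 in the PanIN libraries, and 102, 99.6 and 76.2 in Tumor. No 2 stages overlapped, and every Tumor library lay above every PanIN library, which in turn lay above every Healthy library. The same order held in CPM, with 16.7, 16.5 and 18.3 CPM in the Healthy libraries, 27.0, 33.5 and 45.1 CPM in the PanIN libraries, and 99.5, 93.5 and 58.9 CPM in Tumor. Of all genes tested, 12.2% did not overlap in CPM between PanIN and Healthy and 18.1% did not between Tumor and Healthy. Between Tumor and PanIN the share was 15.6%.

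The log2 fold change of Ifitm2 was 1.04 (SE 0.26) for PanIN over Healthy, 2.29 (SE 0.27) for Tumor over Healthy and 1.26 (SE 0.26) for Tumor over PanIN. The 3 Healthy libraries were close to each other, with a mean of 17.1 ± 1.01 CPM (SD, n = 3), although 2 of them stood apart in other respects. Without Healthy 2 the log2 fold change of Tumor over Healthy was 2.27, and without Healthy 3 it was 2.35. Among the 24133 genes tested, Ifitm2 exceeded 84.6% by mean TPM in Healthy, 91.3% in PanIN and 95.8% in Tumor.

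**Figure D1:**
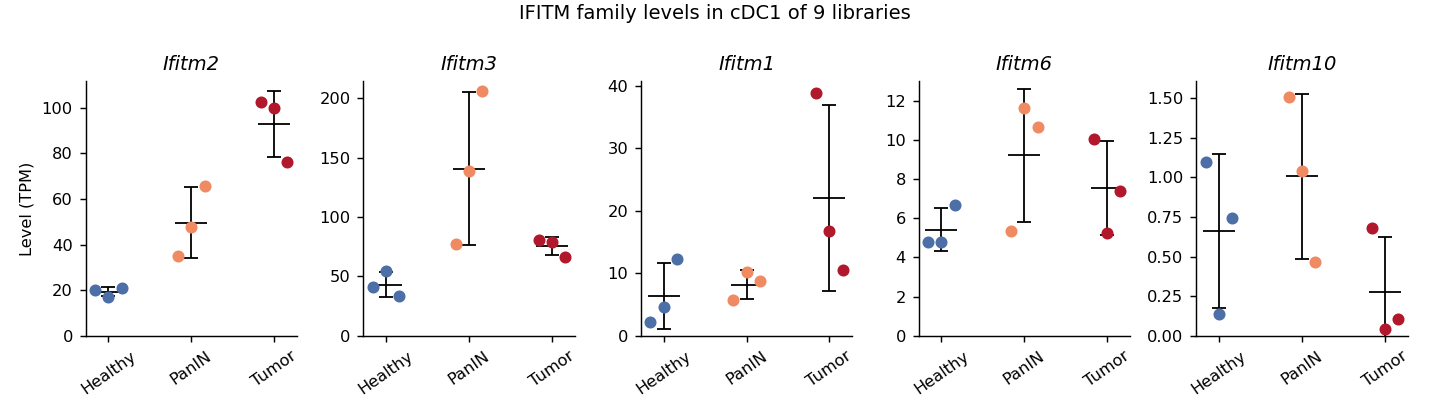
Level in TPM (vertical axis, linear, a different range in each panel) of the 5 family members in the 3 Healthy, 3 PanIN and 3 Tumor libraries; points are libraries, the horizontal bar is the mean and the whiskers are 1 SD. Ifitm2 is highest in Tumor with no overlap between stages, Ifitm3 has its highest values in PanIN, and Ifitm10 stays at or below 1.51 TPM.

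One library of each stage, Tumor 1, PanIN 1 and Healthy 1, carries the same code in its title, and the labels do not say what the code stands for. Each of the other 6 libraries carries a code of its own, so among those 6 code and stage cannot be told apart. Within that code Ifitm2 was 2.58 higher on the log2 scale in Tumor than in Healthy, and 2.09 higher in the other 6 libraries. For PanIN against Healthy the difference was 0.69 within the code and 1.16 in the other 6 libraries, and for Tumor against PanIN it was 1.88 and 0.93. Because the stages of Ifitm2 did not overlap, the sign of each difference was fixed in advance, and only its size is a description.

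Ifitm3, the member best known for keeping influenza virus from leaving endosomes in mice, followed another order of stages. It had 41.4, 54.2 and 33.7 TPM in the Healthy libraries, 76.9, 139 and 206 TPM in the PanIN libraries, and 81.0, 78.9 and 66.5 TPM in Tumor. Every PanIN library and every Tumor library lay above every Healthy library in TPM, and PanIN 2 and PanIN 3 were the highest. By CPM the levels were 31.4, 46.2 and 26.9 in the Healthy libraries, 53.9, 86.3 and 126 in the PanIN libraries, and 71.2, 67.1 and 45.9 in Tumor, so that Tumor 3 lay just under Healthy 2.

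Compared with Healthy, PanIN had a log2 fold change of 1.35 for Ifitm3 (SE 0.32), with all 3 libraries higher, an unadjusted p of 0.00129 and an adjusted p of 0.323 by edgeR. It did not pass the threshold over all genes. DESeq2 gave 1.32 with an adjusted p of 0.0324, and edgeR without a filter on low counts gave 1.33 with an adjusted p of 0.0241. Those settings also called more genes in all, 0.865% of those with an adjusted p by DESeq2 and 0.333% without the filter. Over the 20 alternatives run, the adjusted p ranged from 0.0241 to 0.948.

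In the comparison of Tumor with Healthy, Ifitm3 had a log2 fold change of 0.82 (SE 0.32, unadjusted p 0.0254, adjusted p 0.217 by edgeR). Without Healthy 2, the library low in Ccr7, it was 1.08 with an adjusted p of 0.0606, and PanIN over Healthy was 1.61 with an adjusted p of 0.0564. That setting called 2177 genes between Tumor and Healthy, against 6 in the main fit, and 6 between PanIN and Healthy, against 0. Ifitm3 was not among those called. Without Healthy 3 the values were 0.68 for Tumor over Healthy and 1.21 for PanIN over Healthy, with adjusted p of 0.491 and 0.717 by edgeR. Tumor over PanIN gave -0.53 (SE 0.32, adjusted p 1.0 by edgeR), and its sign differed by code, at 0.40 within the shared title code and -0.91 in the other 6 libraries.

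The PanIN libraries with the most Ifitm3 were also those with the most neutrophil marker RNA. The summed neutrophil markers came to 44.8 CPM in PanIN 2 and 32.4 CPM in PanIN 3, against 4.27 CPM in PanIN 1. They came to 2.70 to 5.15 CPM in Healthy and 3.54 to 9.96 CPM in Tumor. Of the 11 markers, 10 had counts in PanIN 2 and PanIN 3 and 6 in PanIN 1, with 7 to 10 in Healthy and 6 to 9 in Tumor, and Elane was at 0 in every library. Monocyte and macrophage markers were at 287 to 469 CPM in PanIN, 217 to 327 CPM in Tumor and 384 to 743 CPM in Healthy. Summed B cell markers reached 931 CPM in PanIN 2, against 282 CPM in PanIN 1 and 302 CPM in PanIN 3. They came to 209 to 487 CPM in Healthy and 265 to 331.5 CPM in Tumor. Acinar markers summed to 5.64 to 14.3 CPM in PanIN, 0.808 to 1.67 CPM in Tumor and 0.184 to 2.71 CPM in Healthy. Their part in the levels of the IFITM genes was not tested.

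Ifitm1 was lower than Ifitm2 and Ifitm3 in mean TPM at every stage, and it varied widely among libraries of one stage. It had 2.20, 4.65 and 12.3 TPM in the Healthy libraries, 5.72, 10.2 and 8.74 TPM in the PanIN libraries, and 38.9, 16.8 and 10.5 TPM in Tumor. Tumor 1 had the highest level and Healthy 1 the lowest, and Healthy 3 lay above Tumor 3. The log2 fold change was 0.12 (SE 0.61) for PanIN over Healthy, 1.88 (SE 0.62) for Tumor over Healthy and 1.76 (SE 0.62) for Tumor over PanIN. Adjusted p-values by edgeR were 0.972 for PanIN over Healthy, 0.17 for Tumor over Healthy and 1.0 for Tumor over PanIN.

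No comparison of Ifitm1 passed the threshold in that test, while Tumor over Healthy had an unadjusted p of 0.0106. DESeq2 gave 1.86 with an adjusted p of 0.0394 and edgeR without the filter 1.83 with 0.0437, in settings that called 5.65% and 2.82% of genes. A single library weighed heavily on the value, since Tumor over Healthy was 1.17 without Tumor 1 (adjusted p 0.434 by edgeR) and 2.80 without Healthy 3 (adjusted p 0.354). Within the shared title code Tumor lay 4.32 above Healthy on the log2 scale, and in the other 6 libraries 0.84 above.

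Tumor 1 also had the highest summed level of the markers of several other cell types among the Tumor libraries. Plasma cell markers summed to 1581 CPM in Tumor 1, 621 CPM in Tumor 2 and 201 CPM in Tumor 3, against 127 to 240 CPM in Healthy. Epithelial markers summed to 570 CPM in Tumor 1, with all 12 detected, against 293 and 313 CPM in the other Tumor libraries and 162 to 280 CPM in Healthy. Stromal and endothelial markers summed to 89.2 CPM in Tumor 1 and 96.8 CPM in Healthy 3, the 2 highest of the 9 libraries. T cell markers summed to 483 CPM in Tumor 1, 278 CPM in PanIN 1 and 305 CPM in Healthy 1, where Ifitm1 was lowest. NK cell markers summed to 47.7 CPM in Tumor 1, 54.0 CPM in PanIN 1 and 46.9 CPM in Healthy 1. Those libraries share a title code, and each was the highest of its stage for T cell, NK cell and epithelial markers. In PanIN, plasma cell markers summed to 285 to 513 CPM and epithelial markers to 184 to 306 CPM. Whether cells of these types were present, and what they contributed to Ifitm1, was not tested.

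Ifitm6 was low and differed little between stages relative to its error. It had 4.80, 4.77 and 6.69 TPM in the Healthy libraries, 5.34, 11.6 and 10.7 TPM in the PanIN libraries, and 10.03, 5.25 and 7.41 TPM in Tumor, and all 3 stages overlapped. Its log2 fold change was 0.44 for PanIN over Healthy, 0.59 for Tumor over Healthy and 0.15 for Tumor over PanIN, each with an SE of 0.41. The adjusted p-values by edgeR were 0.785, 0.508 and 1.0 in that order. The mean of Ifitm6 was highest in Tumor by CPM and highest in PanIN by TPM.

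Ifitm10, the member outside the cluster, had few counts in every library. Its counts were 75, 13 and 137 in the Healthy libraries, 93, 59 and 34 in the PanIN libraries, and 65, 4 and 5 in Tumor, so that Tumor 2 and Tumor 3 were the lowest of the 9 libraries. The log2 fold changes of 0.19 for PanIN over Healthy, -1.12 for Tumor over Healthy and -1.31 for Tumor over PanIN had SEs of 1.01 to 1.04, and adjusted p-values by edgeR of 0.974, 0.633 and 1.0. Without Tumor 1 the difference of Tumor from Healthy was -3.55 (adjusted p 0.325 by edgeR).

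Outside the 5 members, Ifitm5 had 0 to 35 counts a library and did not pass the filter. Ifitm7, on chromosome 16, had 1 to 129 counts, and its adjusted p by edgeR was at least 0.904 in each comparison.

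Taking the 4 members other than Ifitm2, 0 were called in any comparison at an adjusted p under 0.05 by edgeR. At an unadjusted p under 0.05 the count was 1 for PanIN against Healthy (Ifitm3), where 10.5% of all genes passed, and 2 for Tumor against Healthy (Ifitm1 and Ifitm3), where 17.8% did. For Tumor against PanIN it was 1 (Ifitm1), where 4.54% did. Groups that did not overlap in CPM were found for 1 member between PanIN and Healthy (Ifitm3), against 12.2% of all genes, for 0 between Tumor and Healthy, against 18.1%, and for 1 between Tumor and PanIN (Ifitm1), against 15.6%. Among 4 genes each of these counts is at most 2, and nothing is called particular to the family from them.

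**Figure D2:**
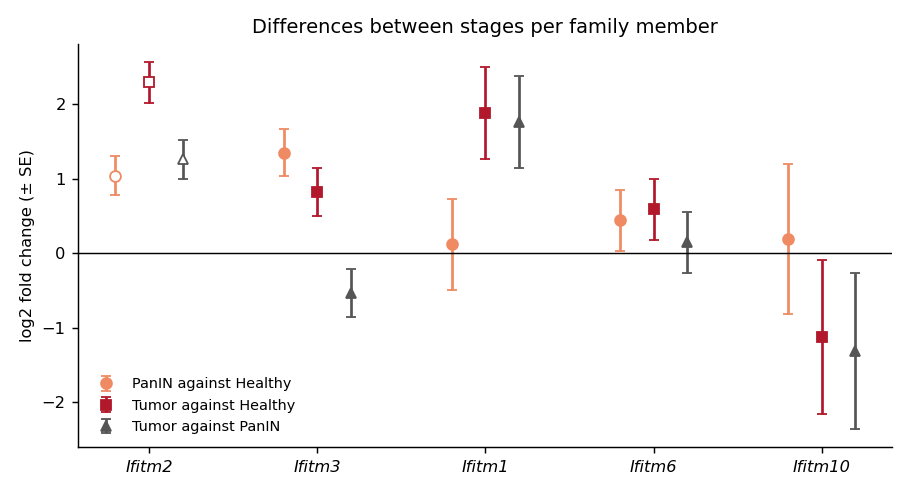
Log2 fold change (vertical axis, with its SE as whiskers) of each member for PanIN against Healthy, Tumor against Healthy and Tumor against PanIN, from one edgeR fit of 9 libraries. Open symbols are Ifitm2, which chose the family; Ifitm3 and Ifitm10 have negative values for Tumor against PanIN, and the whiskers of Ifitm10 are the widest.

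The make-up of family RNA differed between the Tumor libraries and the others. It is a description, since it contains Ifitm2, which chose the family. The 5 genes summed to 69.6, 80.7 and 74.5 TPM in the Healthy libraries, 124, 210 and 291 TPM in the PanIN libraries, and 233, 201 and 161 TPM in Tumor. Ifitm2 held 21.1% to 28.8% of that sum in Healthy, 22.6% to 28.0% in PanIN and 43.9% to 49.7% in Tumor. Ifitm3 held 45.2% to 67.1% in Healthy, 61.9% to 70.6% in PanIN and 34.8% to 41.4% in Tumor.

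The order of Ifitm2 and Ifitm3 by level per length restates these shares, since it comes from the same TPM values. The ratio of Ifitm2 TPM to Ifitm3 TPM was 0.48, 0.31 and 0.63 in the Healthy libraries, 0.45, 0.34 and 0.32 in the PanIN libraries, and 1.26, 1.26 and 1.15 in Tumor. All 3 Tumor libraries were above 1 and all 6 others below it, and the PanIN and Healthy libraries overlapped. Its mean was 1.22 ± 0.0635 in Tumor, against 0.37 ± 0.07 in PanIN and 0.473 ± 0.16 in Healthy (SD, n = 3 each). Because the ratio contains the value that chose the family, it is given without a test.

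**Figure D3:**
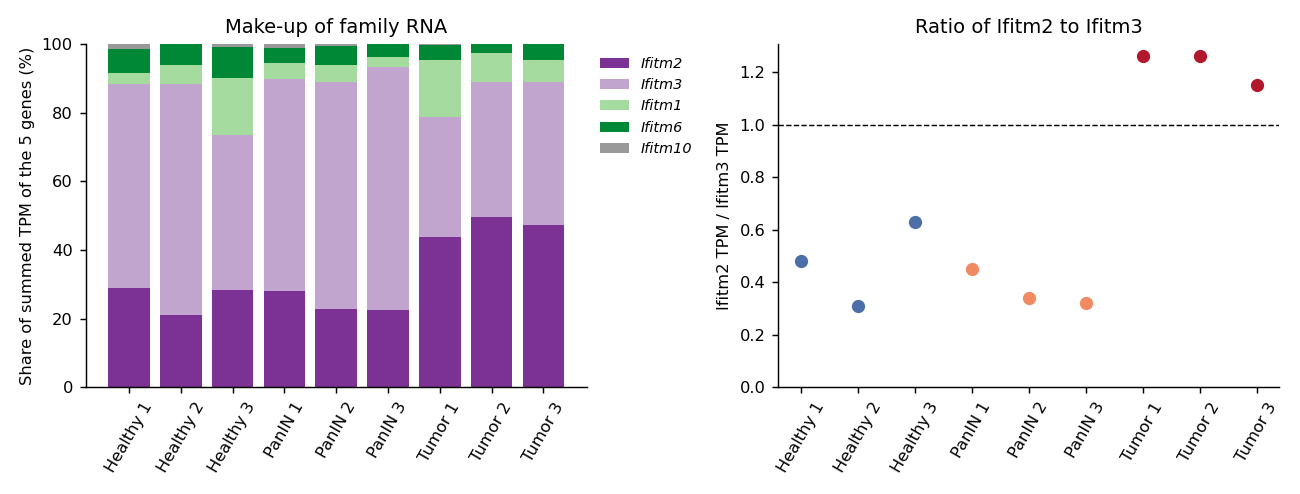
Left, share in percent of the summed TPM of the 5 genes held by each member, one stacked bar for each of the 9 libraries; right, Ifitm2 TPM divided by Ifitm3 TPM in each library, with a dashed line at 1. The 3 Tumor libraries lie at 1.15 to 1.26 and the 6 others at 0.31 to 0.63.

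A single annotated transcript each stood for Ifitm2 and Ifitm3. Of the 3 transcripts of Ifitm1, Ifitm1-202 held 93.6% to 97.8% of the gene's TPM in Healthy, 81.8% to 93.6% in PanIN and 81.5% to 97.3% in Tumor. Ifitm1-203 had its highest share, 17.2%, in a Tumor library. Ifitm6-201 was the main transcript of Ifitm6, with 67.0% to 92.1% in Healthy, 90.5% to 96.8% in PanIN and 73.3% to 93.4% in Tumor. Ifitm10-202 was the main transcript of Ifitm10 except in Tumor 3, where Ifitm10-203 held all 5 counts. The splitting of counts between transcripts of one gene is a model's estimate, and it was not tested.

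The interferon effector genes, those that interferon induces in most cells, were at their highest mean in PanIN more often than in Tumor. Of 44 effectors tested, 43 had a positive log2 fold change for PanIN over Healthy, with a median of 1.09 against -0.10 over all genes tested. At an unadjusted p under 0.05 by edgeR, 26 were higher in PanIN and 0 lower, against 1163 higher and 1364 lower of the 24133 genes. For Tumor over Healthy the median was 0.34 against -0.11 over all genes, with 12 higher and 0 lower at that p, where 1647 of all genes were higher and 2645 lower. In Tumor against PanIN the median was -0.53 against -0.05, with 0 higher and 15 lower, where 487 of all genes were higher and 608 lower. None of the 44 was called over all genes in any comparison by edgeR.

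Isg15, a ubiquitin-like protein attached to other proteins after interferon, was among the effectors with the smallest p. It had 16.6, 18.3 and 10.1 CPM in the Healthy libraries, 38.2, 46.1 and 46.5 CPM in the PanIN libraries, and 44.6, 44.4 and 37.8 CPM in Tumor. PanIN and Tumor overlapped each other and neither overlapped Healthy, with log2 fold changes of 1.54 for PanIN over Healthy (SE 0.25, adjusted p 0.238 by edgeR) and 1.5 for Tumor over Healthy (SE 0.25, adjusted p 0.123).

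Xaf1, a partner of the apoptosis inhibitor XIAP, averaged 43.7 ± 15.6 CPM in PanIN and 9.15 ± 2.33 CPM in Healthy (SD, n = 3 each), for which the log2 fold change was 2.26 (SE 0.31, adjusted p 0.236 by edgeR). Oas3, which makes the oligoadenylates that activate RNase L, had a log2 fold change of 2.14 in the same comparison (SE 0.35, adjusted p 0.238 by edgeR). Mx1, a GTPase that restricts influenza virus in mice, averaged 172.5 ± 55.4 CPM in PanIN, 116 ± 28.6 CPM in Tumor and 51.0 ± 20.2 CPM in Healthy (SD, n = 3 each). Ifi203, a member of the family of DNA sensors with a HIN domain, averaged 33.8 ± 5.60 CPM in Tumor and 96.8 ± 40.6 CPM in PanIN (SD, n = 3 each). Ifit3, a protein of the complex that binds foreign RNA, had -2.08 as its log2 fold change for Tumor over PanIN (SE 0.49, adjusted p 1.0 by edgeR).

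Set beside this list, Ifitm3 followed the commonest order of the effectors and Ifitm2 did not. The order of mean CPM with PanIN highest, Tumor next and Healthy lowest was that of Ifitm3 and of 28 of the 44 effectors (63.6%), and of 13.6% of all genes tested. Ifitm1, Ifitm2 and Ifitm6 had Tumor highest, PanIN next and Healthy lowest, as did 4 effectors (9.09%) and 17.3% of all genes. Those 4 were Bst2, Ifi27, Ifi35 and Ch25h, named after their values were seen. By mean TPM, however, Bst2 (74.6 in Tumor and 86.7 in PanIN), Ifi27 (21.8 in Tumor and 25.8 in PanIN) and Ifi35 (51.9 in Tumor and 54.7 in PanIN) had PanIN highest. Ch25h averaged at most 0.563 CPM in a stage, with overlapping stages, so the order of these 4 genes is weakly set. Ifitm6, too, had PanIN highest by mean TPM (9.21, against 7.56 in Tumor). The order of Ifitm2 was the same in TPM, which is only a description, since its difference between stages chose the family. Bst2 is tetherin, which holds budding viruses at the cell surface, and Ch25h makes 25-hydroxycholesterol, an oxysterol that also hinders the fusion of viruses. Bst2 is also a marker of plasmacytoid dendritic cells, whose summed markers came to 179 to 196.5 CPM in Healthy, 155 to 208 CPM in PanIN and 150.3 to 206 CPM in Tumor. That sum includes Bst2 itself, so it is no separate gauge of those cells. Bst2 alone had 47.5 to 69.7 CPM in Healthy, 71.1 to 75.65 CPM in PanIN and 69.4 to 99.6 CPM in Tumor. Ifitm10 had PanIN highest and Tumor lowest, as did 11 effectors (25.0%) and 11.7% of all genes. An order of means takes no account of error.

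**Figure D4:**
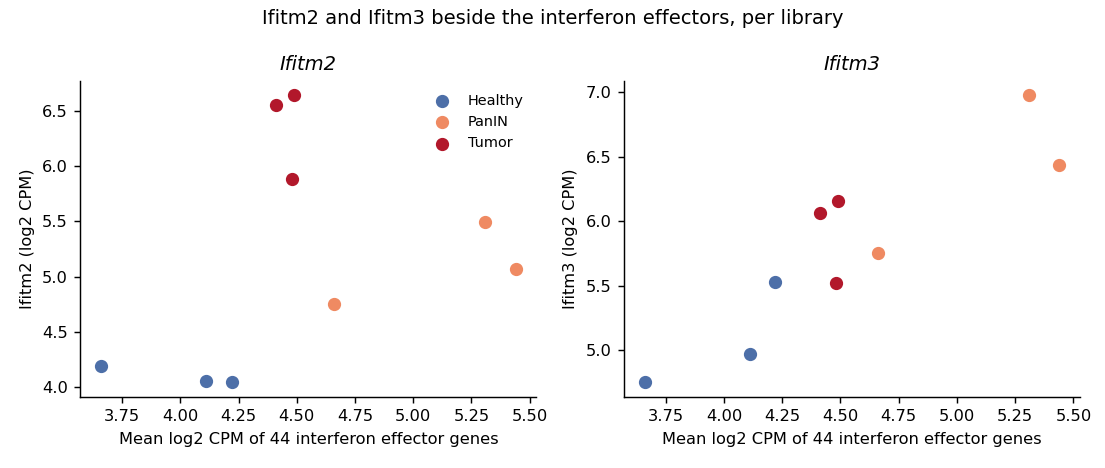
Level of Ifitm2 (left) and Ifitm3 (right) in log2 CPM against the mean log2 CPM of the 44 interferon effectors in the same library (horizontal axis); each point is a library. The Tumor libraries lie at 4.41 to 4.49 on the horizontal axis, between Healthy (3.66 to 4.22) and PanIN (4.66 to 5.44), and hold the 3 highest values of Ifitm2 but not of Ifitm3.

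The mean log2 CPM of the effectors was 4.11, 4.22 and 3.66 in the Healthy libraries, 4.66, 5.44 and 5.31 in the PanIN libraries, and 4.49, 4.41 and 4.48 in Tumor. Every PanIN library lay above every Tumor library, which in turn lay above every Healthy library. PanIN 2 and PanIN 3, which were high in Ifitm3 and in neutrophil markers, were also the highest in effectors. Whether the one bears on the other was not tested.

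Among the receptors, kinases and transcription factors of interferon signalling, 15 genes were tested and none was called over all genes by edgeR. Their median log2 fold change was 0.48 for PanIN over Healthy, 0.49 for Tumor over Healthy and -0.19 for Tumor over PanIN, against -0.10, -0.11 and -0.05 over all genes tested. At an unadjusted p under 0.05, 5 were higher in PanIN than in Healthy, 4 higher in Tumor than in Healthy and 2 lower in Tumor than in PanIN. Over all 24133 genes those counts were 1163 higher in PanIN than in Healthy, 1647 higher in Tumor than in Healthy and 608 lower in Tumor than in PanIN. Stat2, a subunit of the factor that binds ISRE sites, averaged 205 ± 88.4 CPM in PanIN and 77.0 ± 22.4 CPM in Healthy (SD, n = 3 each), for which the log2 fold change was 1.41 (SE 0.35, adjusted p 0.329 by edgeR). Irf7, which amplifies type I interferon, averaged 277 ± 112.5 CPM in PanIN and 93.0 ± 50.04 CPM in Healthy (SD, n = 3 each). Irf1, a factor induced by interferon gamma, averaged 503.5 ± 147 CPM in Tumor and 222 ± 122 CPM in Healthy (SD, n = 3 each), for which the log2 fold change was 1.18 (SE 0.38, adjusted p 0.168 by edgeR). Socs1, which restrains this signalling, had a log2 fold change of 1.15 in the same comparison (SE 0.40, adjusted p 0.177 by edgeR), and Irf3 one of 0.70 (SE 0.23, adjusted p 0.17).

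Of the genes whose proteins modify or accompany IFITM proteins, 20 were tested and 0 called by edgeR, and the median log2 fold change was -0.02 for PanIN over Healthy, 0.10 for Tumor over Healthy and -0.02 for Tumor over PanIN. At an unadjusted p under 0.05, 0 were higher and 1 lower in PanIN than in Healthy, 2 higher and 2 lower in Tumor than in Healthy, and 0 passed between Tumor and PanIN. In either direction 10.5% of all genes passed between PanIN and Healthy, 17.8% between Tumor and Healthy and 4.54% between Tumor and PanIN, so the counts of the list lie near the background. Nedd4, a ubiquitin ligase that marks IFITM3 for degradation, had 268, 529 and 271 CPM in the Healthy libraries, 207, 249 and 148 CPM in the PanIN libraries, and 126, 166 and 192 CPM in Tumor. All Tumor and all PanIN libraries lay below all Healthy libraries, Healthy 2 being the highest. Its log2 fold change was -1.14 for Tumor over Healthy (SE 0.32, adjusted p 0.168 by edgeR) and -0.82 for PanIN over Healthy (SE 0.32, adjusted p 0.457). Abhd16a, which removes palmitate from proteins, averaged 88.1 ± 11.4 CPM in Tumor and 52.5 ± 9.32 CPM in Healthy (SD, n = 3 each), for which the log2 fold change was 0.75 (SE 0.21, adjusted p 0.168 by edgeR). Zdhhc4, of the enzyme family that attaches palmitate, had 0.71 in that comparison (SE 0.24, adjusted p 0.174 by edgeR). Cd81, a tetraspanin, averaged 283.5 ± 12.5 CPM in Tumor and 207 ± 10.04 CPM in PanIN (SD, n = 3 each), with an adjusted p of 1.0 by edgeR. The kinase Fyn had a log2 fold change of 0.45 for PanIN over Healthy, and the adaptor subunit Ap2s1 and the methyltransferase Setd7 had 0.44 and -0.37 for Tumor over PanIN, each with an adjusted p of at least 0.567.

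Within 100 kb of the cluster lay 14 protein-coding genes outside the Ifitm family, of which 9 were tested and 0 were called by edgeR in any comparison. Psmd13, a proteasome subunit and the most abundant of them per length, averaged 127 ± 6.75 TPM in Tumor and 92.1 ± 15.1 TPM in Healthy (SD, n = 3 each), with a log2 fold change of 0.18 (SE 0.22) by the count fit. Ric8a, a chaperone of G protein subunits, Sirt3, a mitochondrial deacetylase, and Bet1l, a Golgi SNARE protein, had -0.02, 0.12 and 0.23 for Tumor over Healthy. Those genes and Psmd13 overlap at their ends, and reads there cannot be told apart without the strand. Pgghg, a glucosidase gene just beyond Ifitm5, had 0.51 (SE 0.30), and Sigirr, an inhibitor of interleukin-1 receptor signalling, had 0.64 (SE 0.30). Pkp3, a desmosome plaque protein of epithelia, had 0.85 (SE 0.26, adjusted p 0.168 by edgeR), and B4galnt4, a glycosyltransferase, had -1.16 (SE 0.51, adjusted p 0.261). The read-through gene Gm45717 held at most 33 counts in a library and was at 0 in some libraries of each stage, with log2 fold changes of 2.73 for Tumor over Healthy (SE 1.91, adjusted p 0.501 by edgeR) and 3.36 for PanIN over Healthy (SE 1.94, adjusted p 0.58). Cox8b, Nlrp6, Ano9, Gm45785 and Gm17387 did not pass the filter.

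**Figure D5:**
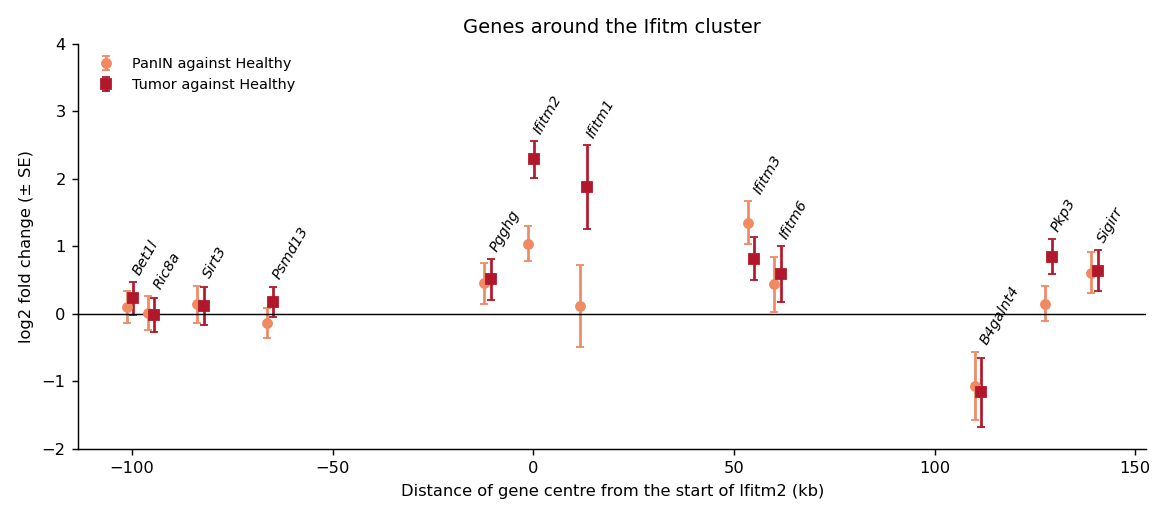
Log2 fold change with its SE (vertical axis) of the tested genes within 100 kb of the Ifitm cluster against the distance of each gene's centre from the start of Ifitm2 in kb (horizontal axis), for PanIN against Healthy and for Tumor against Healthy; the read-through gene Gm45717, at 2.73 with an SE of 1.91 for Tumor against Healthy, is not drawn. Of the genes drawn, Ifitm2 at 2.29 and Ifitm1 at 1.88 have the highest values for Tumor against Healthy, and the genes drawn outside the family lie between -1.16 and 0.85.

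Across the 9 libraries, the pattern of Ifitm2 in log2 CPM was most like that of Mrpl53 (Pearson r 0.964), a mitochondrial ribosomal protein, among 12017 protein-coding genes searched. Tedc2 (r 0.937), Coq10b (r 0.936), Anxa2 (r 0.933) and Amdhd2 (r 0.932) came next. Anxa2, which encodes annexin A2, a membrane-binding protein, had 182, 161 and 192.5 CPM in the Healthy libraries, 228, 202.5 and 216 CPM in the PanIN libraries, and 391, 312 and 265 CPM in Tumor. Mrpl53 had 7.64, 8.11 and 6.55 CPM in the Healthy libraries, 8.26, 10.9 and 11.01 CPM in the PanIN libraries, and 17.4, 15.7 and 12.1 CPM in Tumor. Its stages did not overlap either, but it was picked for its likeness to Ifitm2. In the family, r with Ifitm2 was 0.80 for Ifitm1, 0.62 for Ifitm6, 0.57 for Ifitm3 and -0.44 for Ifitm10. These libraries share their stages, their depth and any other cells they hold, so r is a description.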

How the data were processed

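RNA of cDC1 from 9 peri-pancreatic lymph node libraries was extracted with an RNeasy Plus Micro kit and made into strand-specific libraries with the NEBNext Ultra II Directional kit, per the labels' protocols. The deposited tables hold estimated counts and TPM for each transcript and library; per the submitters' processing notes they were made with Salmon on mm10, while the version, the annotation, the strand setting and the rule for shared reads remain not given in the sources used here. Deposited TPM values are scaled to transcript length and to the same total in each library by the authors' quantification. Whether reads of overlapping antisense genes were separated is therefore unknown.

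Transcripts were matched by identifier to GENCODE annotation of GRCm38 (136176 of 136288, with 112 left out), estimated counts were summed to 53458 genes and rounded, and TPM was summed. Libraries were grouped by their stage label, and replicate numbers only name them. The 3 comparisons came from one quasi-likelihood fit of all 9 libraries with edgeR 4.0.16 in R 4.3.3 (TMM scaling, group only, genes kept by filterByExpr with a minimum count of 10), with Benjamini-Hochberg adjustment over 24133 genes and a threshold of 0.05. The SE is the log2 fold change divided by the root of F. CPM uses TMM library sizes. The common biological coefficient of variation was 56.5%. The fit was tested on simulated data. TPM was used wherever levels of different genes were compared.

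The 20 alternatives were DESeq2 1.42.0, no filter, a filter of 50 counts, limma 3.58.1 on log2(TPM + 1) or log2(TPM + 0.1), counts rebuilt from TPM, only the 6 libraries compared, a term for the title code, each library left out, Healthy 2 and Healthy 3 left out together, RLE size factors, and Ifitm2 summed with the genes that share its sequence, the last chosen after seeing the data. Named genes were the members, other Ifitm genes, any called gene and otherwise the 3 genes of each pathway list with the smallest p in each comparison, the protein-coding neighbours within 100 kb, and the 5 genes most like Ifitm2. A gene of the signalling list that this rule names is not reported here. The members and the lists were chosen with earlier results of these data known. Ifitm2 was given no test. Promoters are from RefSeq tables.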

Additional observations from a re-analysis of the deposited data

How the results depend on the processing

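Ifitm2 chose the family and its stages did not overlap, so its sign could hardly change, and only the size is described. Over the 20 alternatives its log2 fold change was 0.82 to 1.30 for PanIN over Healthy and 2.15 to 2.49 for Tumor over Healthy. For Tumor over PanIN it was 0.93 to 1.47. Summed with the genes that share its sequence, an alternative chosen after seeing the data, Ifitm2 had 1.03, 2.27 and 1.24 in that order. Counts of called genes depended strongly on the setting, and the cause was not tested. Between PanIN and Healthy (0 as reported, 2527 at an unadjusted p under 0.05 by edgeR) they were 206 by DESeq2, 123 without a filter, 4 on log2(TPM + 1), 3 on log2(TPM + 0.1), 1 on rebuilt counts, 3 without Healthy 2 and Healthy 3, and 0 to 6 with 1 library left out. Between Tumor and Healthy (6) they were 1462 by DESeq2, 1041 without a filter, 3 with a filter of 50 counts, 1 on rebuilt counts, and 2 to 2177 with 1 library left out, the highest without Healthy 2, followed by 42 without Healthy 1 and 16 without Tumor 3. Between Tumor and PanIN (3) they were 38 by DESeq2, 33 without a filter, 1 with a filter of 50 counts, 1 with a term for the title code, 0 on rebuilt counts, 0 with only the 6 libraries compared, and 1 to 7 with 1 library left out.

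Of the 4 members other than Ifitm2, 1 was called between PanIN and Healthy and 1 between Tumor and Healthy, by DESeq2 and without a filter alike, and 0 between Tumor and PanIN in any alternative. Signs reversed, with the cause not tested, for Ifitm1 in PanIN over Healthy (-0.29 without Healthy 1, -0.04 without Healthy 2, -0.29 to 1.05 over all 9 libraries left out in turn), for Ifitm10 in PanIN over Healthy (-0.29 without PanIN 1, -0.26 without Healthy 2, -0.29 to 0.66 over all 9, -0.45 without Healthy 2 and Healthy 3) and for Ifitm6 in Tumor over PanIN (-0.23 on log2(TPM + 1), -0.25 on log2(TPM + 0.1), -0.23 without Tumor 1, -0.08 without PanIN 1, -0.23 to 0.33 over all 9). Ifitm10 had as few as 4 counts in a library. The labels give no replicate numbers, so the only pairing was by the title code that 3 libraries share, and a term for it left 0 members called in each comparison and gave 0, 9 and 1 called genes for PanIN over Healthy, Tumor over Healthy and Tumor over PanIN.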
